A study of Homo sapiens with 24 samples.

Results

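Mitochondrial ribosomal protein genes were described in ovarian cancer cells exposed to a nucleoside drug. The members were the protein-coding genes whose symbol starts with MRPL or MRPS followed by a digit, which gave 78 of the 63299 genes in the count table. Of these, 49 carry an MRPL name and 29 an MRPS name. All 78 passed the filter on low counts and were among the 20240 genes tested. RNA was sequenced from 2 established human lines, A2780, which is sensitive to platinum, and its isogenic platinum-resistant counterpart A2780cis, which was kept resistant by periodic passages in 1 µM cisplatin. Each line received 1 µM 5-FdU-ECyd, a duplex drug that joins 2'-deoxy-5-fluorouridine to 3'-C-ethynylcytidine, or standard medium, for 6 h or 12 h. This gave 8 groups of 3 libraries, 24 in all, with totals of 11077368 to 21901406 counts. Both lines trace back to the same parental cells, so each result is that of 1 pair of related cultures, and A2780cis differs from A2780 also by its cisplatin history.

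The libraries of a group are described as biological triplicates, and the p-values measure the spread between them. The lines were checked against markers of ovarian epithelial cancer. PAX8, WT1, KRT19, MUC16 and CDH1 had a median of 0 CPM (counts relative to the TMM-scaled library total) over the 24 libraries, while EPCAM had medians of 0.776 CPM in A2780 and 0.295 in A2780cis, KRT8 of 1.11 and 4.93, and KRT18 of 1.99 and 25.4. The mesenchymal gene VIM had medians of 1966 and 1994 CPM, and the fibroblast and muscle genes COL3A1, ACTA2 and COL1A1 had 229 and 1822, 61.8 and 4.05, and 9.14 and 1.06. In contrast, the leukocyte and endothelial markers PTPRC, CD3E, PECAM1 and VWF were at a median of 0. Of the 8 epithelial markers, 5 were at a median of 0, and the cells are named by line below.

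Mitochondria carry their own ribosome, the mitoribosome, which translates the few respiratory chain proteins encoded in mitochondrial DNA. Its large and small subunits combine RNA that is transcribed in the mitochondrion with proteins that are encoded in the nucleus, made in the cytosol and imported. Many of these proteins have counterparts in bacterial ribosomes, and others occur only in mitochondria. The names do not always give the place: MRPS30 and MRPS18A sit in the large subunit, and MRPS36 is also known as a component of the 2-oxoglutarate dehydrogenase complex.

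The promoters of the members are shown first, because members that move together are compared below. RefSeq promoter windows (GRCh38.p14, 250 bases before to 50 after the listed start) were found for 69 of the 78 genes and were searched on both strands. The letters AAGATGGC, a form of the YY1 binding motif, occurred in 20 of the 69 windows (29.0%), against 3.03% of all 27305 promoters and 3.97% of the 15345 promoters of protein-coding genes. In 15 of these 20 genes a match lay after the start, at 7 to 36 bases. The letters CCGGAAGT, read by ETS factors such as GABPA, occurred in 11 windows (15.9%), against 4.44% of all and 6.32% of protein-coding promoters, and all 11 genes had a match before the start. Both motifs were thus found in a larger share of these windows than in the background, which is a match of letters and not a measured site.

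The stretches of 160 bases below, from 130 before to 30 after the RefSeq start, are printed because they belong to the genes with the largest fall and the largest rise at 12 h in A2780 (MRPL12 and MRPL49), to the member with the highest untreated level per kb (MRPL20), to a gene that fell in both lines (MRPS27) and to a gene that rose in A2780cis (MRPL51). Capitals mark AAGATGGC or CCGGAAGT on either strand, each read 5′ to 3′ along the gene.
MRPL12, chr17:81703237-81703396, plus strand: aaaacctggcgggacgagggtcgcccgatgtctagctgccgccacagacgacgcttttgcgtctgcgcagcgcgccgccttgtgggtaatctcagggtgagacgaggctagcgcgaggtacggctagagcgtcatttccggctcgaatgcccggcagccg
MRPL49, chr11:65122053-65122212, plus strand: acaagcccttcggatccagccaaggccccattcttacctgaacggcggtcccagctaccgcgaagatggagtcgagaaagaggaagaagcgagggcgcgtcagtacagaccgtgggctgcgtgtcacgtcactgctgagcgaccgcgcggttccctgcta
MRPL20, chr1:1407264-1407423, minus strand: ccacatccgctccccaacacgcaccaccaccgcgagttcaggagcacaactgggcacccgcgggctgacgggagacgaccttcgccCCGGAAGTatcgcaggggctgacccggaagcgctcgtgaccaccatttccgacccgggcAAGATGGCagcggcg
MRPS27, chr5:72320211-72320370, minus strand: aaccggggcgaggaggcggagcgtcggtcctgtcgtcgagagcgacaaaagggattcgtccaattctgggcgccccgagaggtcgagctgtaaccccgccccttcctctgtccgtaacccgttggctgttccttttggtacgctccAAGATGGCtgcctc
MRPL51, chr12:6493233-6493392, minus strand: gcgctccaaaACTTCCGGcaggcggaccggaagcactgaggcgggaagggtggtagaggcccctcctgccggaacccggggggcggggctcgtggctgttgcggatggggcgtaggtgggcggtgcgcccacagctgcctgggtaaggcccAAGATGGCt
Neither set of letters lies in the stretches of MRPL12 and MRPL49. MRPL20 and MRPL51 hold both, and MRPS27 holds AAGATGGC just after its start. For MRPS27 and MRPL51 the RefSeq start lies downstream of the outermost GENCODE start of the gene.

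Other motifs were compared with the same backgrounds. TATAAA was in 2 windows (2.9%), against 12% of all and 9.63% of protein-coding promoters. The core GCATGCGC of the NRF1 motif was in 6 windows (8.70%, against 3.27% and 4.25%), and the longer NRF1 palindrome was in 1 (1.45%, against 1.36% and 1.72%). The SP motif GGGCGG was in 42 windows (60.9%, against 44.6% and 59.2%) and the CCAAT letters in 20 (29.0%, against 35.7% and 36.6%). Of the 17 windows of genes that fell in both lines at 12 h, 6 held AAGATGGC, against 14 of the 52 others. The corresponding counts for CCGGAAGT were 4 of 17 and 7 of 52.

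Mitochondrial ribosomal protein genes were short. Their median gene span was 11940.5 bp, against 33139 bp for all tested protein-coding genes, and their median canonical transcript was 1242 bp, against 3281 bp. The level per kb of canonical transcript in untreated cells (CPM per kb, averaged over the 4 untreated groups) was highest for MRPL20 at 180, MRPL51 at 143, MRPS21 at 132, MRPL3 at 129 and MRPS15 at 112. The lowest levels per kb were those of MRPS33 at 5.65, MRPL42 at 10.1, MRPL57 at 11.6, MRPS11 at 12.3 and MRPL22 at 12.3. The lines differed in the low levels: MRPL57 had 17.4 and 14.6 CPM per kb in A2780 at 6 h and 12 h and 7.40 and 7.14 in A2780cis, and MRPS31, which had 20.7 and 19.0 in A2780, had 7.80 and 6.26 in A2780cis. The order depends also on the length used: per kb of all annotated exons MRPS21 (95.3) and MRPL51 (92.5) came first, MRPL20 (45.6) fell to rank 14 and MRPS15 (37.1) to rank 19, while MRPS33 remained the lowest. No member was at or under the floor of 3 counts in all libraries of a group.

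Reads of many members cannot be assigned with certainty. Exons of 41 of the 78 genes overlap exons of another gene, 36 have a named pseudogene, and 54 had fractional counts, which the authors' counting gives to reads with several alignments. Overlaps and pseudogenes are those of GENCODE release 44. The authors counted on the annotation of GRCh38.p7, where some of these neighbours may be absent. The strand setting of that counting was not found, so reads of a gene and of an opposite-strand neighbour cannot be told apart. Overlaps are given below for the genes described at 12 h. Among other genes named, MRPL38 shares 1373 bp with ENSG00000267426 on its own strand and 172 bp with a lncRNA on the other, MRPS11 shares 516 bp with an opposite-strand transcript, and MRPL37 shares 140, 105 and 33 bp with 3 opposite-strand genes, CYB5RL the first. MRPS2 shares 250 bp with a lncRNA and 104 bp with PIERCE1, both on the other strand. Same-strand overlaps are those of MRPL28 with PGAP6 (223 bp), of MRPS6 with a lncRNA (294 bp) and SLC5A3 (265 bp), and of MRPL42 (282 bp) and MRPL20 (293 bp) with RN7SL pseudogenes. MRPL20 also shares 138 bp with its antisense gene MRPL20-AS1, and MRPL13 shares 3 bp with MTBP.

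The summed level of the 78 genes fell at 12 h in treated A2780 cells. Untreated A2780 libraries of 12 h had summed CPM of 5232, 5118 and 5064, and treated libraries 4547, 4118 and 4135. All treated libraries lay below all untreated ones, and the ratio of the means was 0.830 (5138 ± 85.6 untreated and 4267 ± 243 treated, SD, n = 3 each). In A2780cis at 12 h the untreated libraries had 5415, 4974 and 5033 and the treated libraries 4971, 4227 and 5359, with a ratio of 0.944, and the groups overlapped. At 6 h the ratios were 0.955 in A2780 and 0.941 in A2780cis, and the groups overlapped in both lines. CPM are shares of a library, so a change in the number of cells or in the RNA per cell is not seen in them. A loss of RNA over all genes would not be seen either. Falls and rises, here and below, are relative to the other RNA of the library. The scaling also bears on the A2780 value: as a share of raw counts the 78 genes went only from 0.513% to 0.496% at 12 h, and the TMM factors of the 3 treated A2780 libraries were 1.12 to 1.19.

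**Figure D1:**
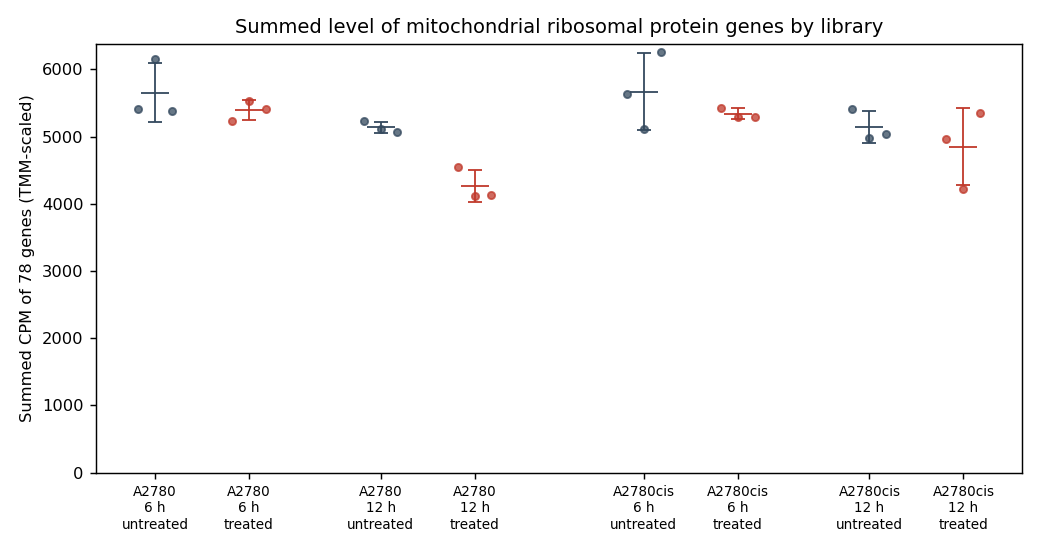
Summed CPM (TMM-scaled) of the 78 mitochondrial ribosomal protein genes on the y axis, starting at 0, for each of the 8 groups on the x axis. Points are libraries, the dash is the group mean and the bar 1 SD (n = 3). The 3 treated A2780 libraries of 12 h, at 4118 to 4547, lie below the 3 untreated ones, at 5064 to 5232, while the groups overlap in the other pairs.

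Treatment of A2780 for 12 h lowered many members and raised few. Of the 78 genes, 37 fell and 2 rose (edgeR quasi-likelihood test, Benjamini-Hochberg adjusted p at most 0.05 over all genes tested), where 26.1% of all 20240 genes fell and 28.6% rose (54.8% in either direction). As a share of the members, 47.4% fell and 2.56% rose. With 1 library left out in turn, 38.5% to 50% fell. Some of the 37 missed the threshold without single libraries, and MRPL2 missed it whichever library was left out. The fitted log2 fold change (log2 FC, treated against untreated) was below 0 for 68 members and above 0 for 10, with a median of -0.28 against 0.02 over all genes and a range of -1.77 to 1.23. Treated libraries lay below all untreated ones for 48 members and above them for 5, against 31% and 33% of all genes. Among large subunit names 25 of 49 fell and 2 rose (median -0.30), and among small subunit names 12 of 29 fell (median -0.24). The counts depend on the scaling: with libraries scaled by their totals alone 24.4% of the members fell and 15.4% rose, against 16.5% and 39.9% of all genes, and the median was -0.06, against 0.24 over all genes.

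MRPL12, the stalk protein of the large subunit, showed the largest fall (ENSG00000262814.7, chr17:81703367-81707517). Its CPM were 69.97, 65.03 and 72.04 in untreated and 18.3, 20.2 and 22.2 in treated A2780 libraries, a gap several times the spread within either group. The log2 FC was -1.77 ± 0.149 (SE, adjusted p = 2.74e-10). Its exons overlap those of the same-strand gene ENSG00000262660 over 701 bp, so that reads there count for both.

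MRPS34, a small subunit protein found only in mitochondrial ribosomes (ENSG00000074071.14, chr16:1771890-1773150), had 53.7, 55.2 and 54.8 CPM in untreated and 23.6, 25.3 and 25.9 in treated libraries. This is a log2 FC of -1.13 ± 0.145 (SE, adjusted p = 3.51e-07), and 341 bp of its exons are shared with EME2 on the opposite strand. MRPL3 (ENSG00000114686.8, chr3:131462212-131502983), a large subunit protein with a bacterial counterpart, went from 196, 199 and 179.6 to 111, 95.3 and 95.2 CPM, a log2 FC of -0.93 ± 0.112 (SE, adjusted p = 1.22e-07). A lncRNA on the other strand overlaps it over 254 bp. The groups of libraries were fully apart for both genes.

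MRPS12, which lies near the decoding centre of the small subunit (ENSG00000128626.11, chr19:38930944-38933168), had 54.8, 50.9 and 50.2 CPM untreated and 23.2, 26.97 and 32.6 treated, a log2 FC of -0.91 ± 0.150 (SE, adjusted p = 1.35e-05). No exon of another gene overlaps it. MRPS27, a small subunit protein with pentatricopeptide repeats (ENSG00000113048.16, chr5:72214953-72321717), fell from 228, 229.7 and 225 to 134, 118 and 114 CPM with a log2 FC of -0.90 ± 0.0798 (SE, adjusted p = 6.78e-10). It shares 276 bp with PTCD2 on the opposite strand. MRPL17, at the exit tunnel of the large subunit (ENSG00000158042.8, chr11:6680385-6683340), went from 57.03, 51.4 and 60.3 to 32.2, 34.4 and 35.8 CPM, a log2 FC of -0.72 ± 0.117 (SE, adjusted p = 1.1e-05), with no overlapping gene.

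Only 2 members rose in A2780 at 12 h, and both are large subunit proteins without a bacterial counterpart. MRPL49 (ENSG00000149792.8, chr11:65122183-65127371) went from 63.6, 69.4 and 73.4 CPM in untreated to 168, 163 and 155 in treated libraries, a log2 FC of 1.23 ± 0.0860 (SE, adjusted p = 8.15e-12). Every treated library had more than 2 times the level of every untreated one. Its exons share 356 bp with SYVN1 on the opposite strand. MRPL39 (ENSG00000154719.13, chr21:25585656-25607517) went from 50.03, 50.96 and 42.1 to 86.2, 74.4 and 72.2 CPM, a log2 FC of 0.70 ± 0.123 (SE, adjusted p = 2.94e-05), and no other exon overlaps it.

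**Figure D2:**
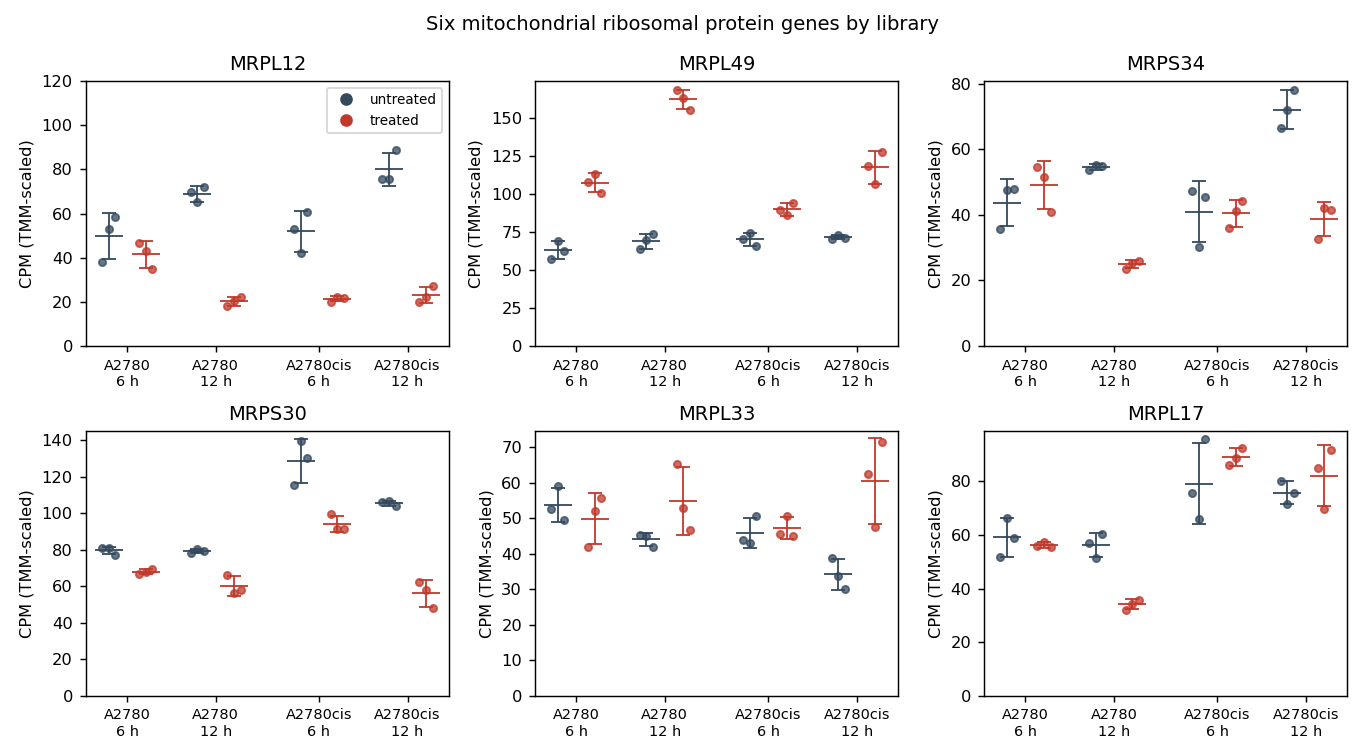
CPM (TMM-scaled, y axis from 0) of MRPL12, MRPL49, MRPS34, MRPS30, MRPL33 and MRPL17 in each library, by line and time on the x axis, with untreated libraries in dark blue and treated ones in red. Points are libraries, dashes group means and bars 1 SD (n = 3). At 12 h MRPL12 lies between 65.0 and 88.7 in untreated and between 18.3 and 27.4 in treated libraries of both lines, and MRPL49 is above the untreated libraries in every treated group.

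In A2780cis at 12 h the members moved in both directions. Of the 78 genes, 23 fell and 16 rose, against 28.9% and 31% of all genes (59.9% in either direction), which is 29.5% and 20.5% of the members. Fitted values were below 0 for 46 and above 0 for 32 members, and the median log2 FC was -0.07, against 0.04 over all genes. Libraries were fully apart downwards for 21 members and upwards for 14, where 29.4% and 30.1% of all genes were. The share that fell is near the background. It rests in part on the treated library of replicate 2: without it 16.7% of the members fell and the median was 0.03, and without untreated replicate 1 19.2% fell. Scaling also turned the balance: with TMM factors from protein-coding genes alone 16.7% fell and 30.8% rose, against 25.4% and 35.7% of all genes. With library totals alone 30.8% rose and the median was 0.03, against 35.7% and 0.15 over all genes.

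MRPL12 again showed the largest fall, from 75.9, 75.7 and 88.7 to 19.9, 22.1 and 27.4 CPM, a log2 FC of -1.79 ± 0.149 (SE, adjusted p = 1.46e-10). MRPS30, a large subunit protein in spite of its name (ENSG00000112996.10, chr5:44808947-44820428), had 106, 107 and 104 CPM in untreated and 62.6, 57.9 and 48.1 in treated libraries, a log2 FC of -0.91 ± 0.0896 (SE, adjusted p = 3.11e-09). No other gene overlaps its exons. MRPS34 went from 66.4, 71.8 and 78.1 to 32.6, 42.1 and 41.5 CPM with a log2 FC of -0.89 ± 0.142 (SE, adjusted p = 6.42e-06). Untreated and treated libraries did not overlap for any of these genes.

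MRPS27 fell from 267, 249 and 241 to 153, 132 and 149 CPM in A2780cis, a log2 FC of -0.80 ± 0.0795 (SE, adjusted p = 3.58e-09). MRPL3 went from 212, 185 and 183 to 129, 103 and 123 CPM, a log2 FC of -0.71 ± 0.111 (SE, adjusted p = 5.37e-06). MRPL4 (ENSG00000105364.13, chr19:10251901-10260055), whose bacterial counterpart lines the exit tunnel, had 46.9, 57.1 and 63.6 CPM untreated and 31.6, 39.6 and 31.8 treated, a log2 FC of -0.70 ± 0.178 (SE, adjusted p = 0.00145). A lncRNA gene on the opposite strand, LIMASI, overlaps 560 bp of its exons, and another overlaps 309 bp.

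The largest rise in A2780cis was that of MRPL33, the counterpart of a small bacterial large subunit protein (ENSG00000243147.7, chr2:27771717-27988087). It had 38.8, 33.6 and 30.1 CPM in untreated and 62.4, 47.5 and 71.4 in treated libraries, a log2 FC of 0.82 ± 0.138 (SE, adjusted p = 1.44e-05), and BABAM2 on the same strand overlaps 324 bp. MRPS14, in the head of the small subunit (ENSG00000120333.4, chr1:175010789-175023425), went from 48.1, 37.6 and 38.1 to 73.04, 55.6 and 78.04 CPM, a log2 FC of 0.74 ± 0.127 (SE, adjusted p = 1.83e-05), with 387 bp shared with CACYBP on the opposite strand. In both genes the lowest treated library, replicate 2, lay closest to the untreated ones.

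MRPL49 also rose in A2780cis, from 70.6, 73.1 and 71.04 to 118, 106 and 127 CPM, a log2 FC of 0.71 ± 0.0854 (SE, adjusted p = 8.86e-08). MRPL39 went from 43.7, 38.2 and 37.4 to 71, 52.4 and 71.1 CPM, a log2 FC of 0.70 ± 0.124 (SE, adjusted p = 2.51e-05). The mitochondria-specific MRPL51 (ENSG00000111639.7, chr12:6491886-6493841), which shares 383 bp with NCAPD2 on the opposite strand, had 111, 98.97 and 97.5 CPM untreated and 171, 131 and 192 treated, a log2 FC of 0.68 ± 0.121 (SE, adjusted p = 2.61e-05). MRPL53 (ENSG00000204822.6, chr2:74471982-74472687), another mitochondria-specific large subunit protein, overlaps CCDC142 on the same strand over 499 bp and a lncRNA on the other over 544 bp. Its levels were 20.5, 22.2 and 24.6 CPM untreated and 33.7, 35.02 and 35.97 treated, a log2 FC of 0.64 ± 0.130 (SE, adjusted p = 0.000148).

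Genes of the same part of the mitoribosome did not all move one way. The counts stand against 26.1% of all genes fallen and 28.6% risen in A2780 and 28.9% and 31% in A2780cis, and with so few genes in a part several of them are near those shares. Of 8 listed exit tunnel proteins, 5 fell and 1 rose in A2780 at 12 h, and 1 fell and 1 rose in A2780cis. MRPL4, whose bacterial counterpart lines the exit tunnel, is not in that list and fell in both lines. Of 8 proteins of the central protuberance, 4 fell in A2780, and 1 fell and 1 rose in A2780cis. Among 6 proteins at the stalk 2 fell in A2780, and 2 fell and 2 rose in A2780cis. Among 8 proteins of the small subunit head 2 fell in A2780, and 2 fell and 3 rose in A2780cis. Of the 48 members with a bacterial counterpart, 23 fell in A2780 (median -0.29), and 15 fell and 7 rose in A2780cis (median -0.09). Of the 29 mitochondria-specific members, 14 fell and 2 rose in A2780 (median -0.22), and 8 fell and 9 rose in A2780cis (median -0.02). The 37 members without an overlapping exon gave 21 fallen and 1 risen in A2780 (median -0.31) and 10 fallen and 8 risen in A2780cis (median -0.07).

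The lists of genes called in the lines overlapped in part. At 12 h 19 members fell in both lines, which is 19 of the 37 in A2780 and of the 23 in A2780cis: MRPL12, MRPL15, MRPL18, MRPL19, MRPL20, MRPL21, MRPL28, MRPL3, MRPL36, MRPL4, MRPL45, MRPS12, MRPS22, MRPS26, MRPS27, MRPS30, MRPS34, MRPS35 and MRPS5. Of these, MRPL12, MRPL3, MRPL4, MRPS27, MRPS30, MRPS34, MRPS35 and MRPS5 passed the threshold in both lines whichever library was left out. The others missed it in A2780 or in A2780cis when a single library was left out. Both genes that rose in A2780, MRPL39 and MRPL49, were among the 16 that rose in A2780cis. MRPL50 fell in A2780 (-0.30, adjusted p = 0.0356) and rose in A2780cis (0.32, adjusted p = 0.0264), and in each line it missed the threshold when any of 4 of the 6 libraries was left out. A further 17 members passed the threshold in A2780 alone, 17 in A2780cis alone and 22 in neither. Over the 78 genes the log2 FC of the lines had a Pearson r of 0.76 and a Spearman rho of 0.69, against an r of 0.71 over 13881 protein-coding genes. Genes are not independent replicates, and the groups of a line share no library with those of the other.

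**Figure D3:**
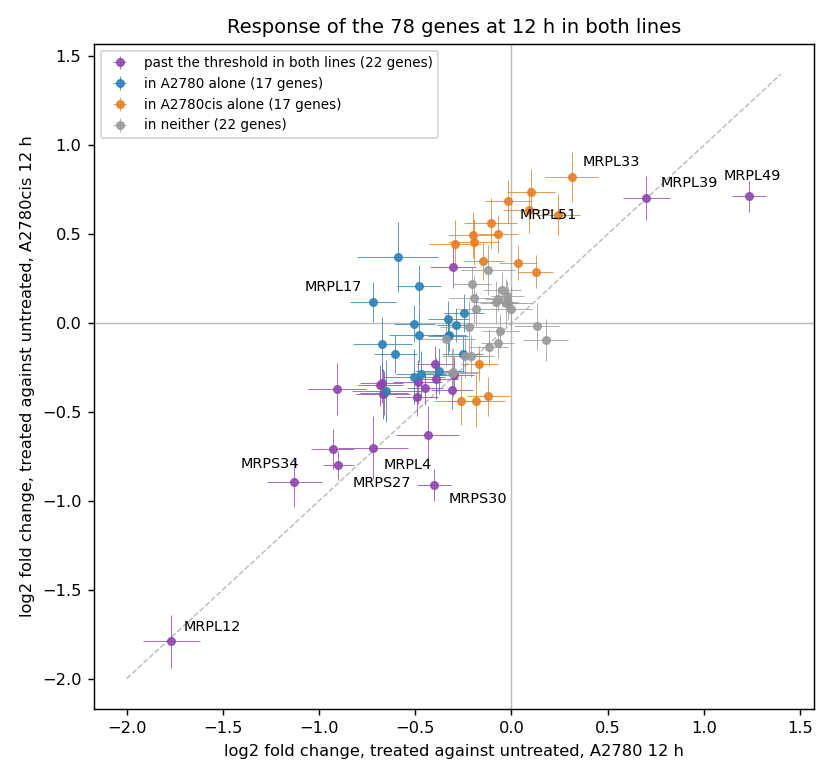
Log2 FC (treated against untreated) of the 78 genes at 12 h in A2780 on the x axis and A2780cis on the y axis, with bars of 1 SE and a dashed line of equal change. Colours give where a gene passed the threshold: 22 in both lines, 17 in A2780 alone, 17 in A2780cis alone and 22 in neither. Most points lie above the dashed line, with a median difference of 0.21, and MRPL12 lies on it at the lower left.

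The difference between the lines was tested itself as the interaction of line and treatment. At 12 h the log2 FC was higher in A2780cis than in A2780 for 16 members and lower for 2, against 9.7% and 14% of all genes (23.7% in either direction). The median difference was 0.21, against -0.04 over all genes, and 65 members had a fitted difference above 0. Of the members chosen by rank for treatment at 12 h or for this difference, none missed the threshold when 1 library was left out. Leaving out 1 library in turn moved the share of higher members from 20.5% to between 14.1% (without treated A2780cis replicate 3) and 32.1% (without treated A2780cis replicate 2).

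MRPL41 showed the largest difference, 0.96 ± 0.290 (SE, adjusted p = 0.0176) (ENSG00000182154.7, chr9:137551879-137552555). This mitochondria-specific large subunit protein had 18.3, 18.8 and 20.1 CPM untreated and 9.67, 13.2 and 14.9 treated in A2780. In A2780cis it had 23.1, 25.4 and 32.6 untreated and 29.6, 41.9 and 33.2 treated. The libraries overlapped in A2780cis and not in A2780.

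MRPL17, which fell in A2780, had 80.1, 71.6 and 75.6 CPM untreated and 84.98, 69.8 and 91.9 treated in A2780cis, and the difference between the lines was 0.84 ± 0.163 (SE, adjusted p = 0.000662). MRPS21 (ENSG00000266472.5, chr1:150293861-150308979), the counterpart of a small bacterial small subunit protein, had 141, 137 and 138 and 119, 107 and 115 CPM in untreated and treated A2780. In A2780cis the values were 125, 115 and 110.3 and 152, 125 and 200.5, a difference of 0.74 ± 0.190 (SE, adjusted p = 0.00643). MRPS21 has 8 named pseudogenes, so its reads are uncertain.

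MRPL51 did not move beyond the spread in A2780, with 129, 123 and 124 CPM untreated and 131, 119 and 121 treated, and its difference between the lines was 0.70 ± 0.170 (SE, adjusted p = 0.00421). The 2 members with a lower log2 FC in A2780cis were MRPL49, at -0.52 ± 0.120 (SE, adjusted p = 0.00281), and MRPS30, at -0.51 ± 0.126 (SE, adjusted p = 0.0049). MRPL49 rose in both lines, and more in A2780. MRPS30 in A2780 had 78.02, 80.5 and 79.3 CPM untreated and 66.3, 56.1 and 57.95 treated, and the fall was larger in A2780cis.

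After 6 h fewer members had passed the threshold. In A2780 9 rose and 5 fell, against 16% and 13.4% of all genes (29.4% in either direction), with a median log2 FC of -0.09 (0.04 over all genes). In A2780cis 5 rose and 5 fell, against 14.4% and 16.3% (30.7%), with a median of -0.04 (0.00 over all genes). Treated libraries were fully above untreated ones for 8 members and below for 14 in each line, where the shares over all genes were 21.1% and 20.5% in A2780 and 21.1% and 22.1% in A2780cis. These counts lie below the background and depend on single libraries: without untreated A2780 replicate 1, 1.28% of the members rose in A2780, and without treated A2780 replicate 1, none fell. Without untreated A2780 replicate 2, 1.28% fell there. In A2780cis 1.28% rose without untreated replicate 2 and 2.56% without treated replicate 3, and 3.85% fell without untreated replicate 1 or 3 or treated replicate 2 or 3. Among the members chosen by rank at 6 h, MRPL49 in both lines and MRPL12, MRPS30 and MRPS27 in A2780cis passed the threshold whichever library was left out. MRPS11, MRPL39, MRPL37, MRPL50, MRPL15, MRPL36 and MRPL35 in A2780 and MRPL41, MRPL4, MRPL38, MRPS11 and MRPL36 in A2780cis missed it without at least 1 library. So did MRPL4 and MRPL38 in A2780, which were named for their pattern of calls.

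MRPL49 rose already at 6 h in both lines. In A2780 it had 57.1, 68.9 and 62.5 CPM untreated and 108, 113 and 101 treated, a log2 FC of 0.77 ± 0.0874 (SE, adjusted p = 3.12e-07). In A2780cis the values were 70.2, 74.1 and 65.9 and 89.4, 85.8 and 93.9, a log2 FC of 0.36 ± 0.0869 (SE, adjusted p = 0.00269). No treated library overlapped an untreated one.

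MRPL12 differed between the lines at 6 h. In A2780 the libraries overlapped, with 38.1, 52.9 and 58.4 CPM untreated and 46.6, 42.9 and 34.8 treated (-0.26, adjusted p = 0.186). In A2780cis they went from 52.96, 42.3 and 60.5 to 20.1, 22.3 and 21.8 CPM, a log2 FC of -1.28 ± 0.151 (SE, adjusted p = 5.42e-07). The interaction at 6 h was -1.02 ± 0.210 (SE, adjusted p = 0.006). It was the only member of the 78 past the threshold there, where 0.692% of all genes were higher and 2.38% lower (3.07% in all), and 3 members had an unadjusted p under 0.05. With DESeq2's Wald test 2.56% of the members were lower. With GC content corrected for, MRPL12 had -1.60 in A2780cis and an interaction of -0.94, both past the threshold. Its value in A2780 was then also further below 0 than without the correction, so a fall there at 6 h is not excluded.

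MRPL36, a small large subunit protein with a bacterial counterpart, fell in both lines at 6 h. It had 45.9, 50.9 and 38.1 CPM untreated and 35.7, 35.9 and 34.2 treated in A2780 (-0.35, adjusted p = 0.0351), and 41.97, 33.3 and 44.98 and 30.8, 30.8 and 33.3 in A2780cis (-0.34, adjusted p = 0.0378). MRPS11, at the platform of the small subunit, rose in both, with 39.6, 49.3 and 45.5 CPM untreated and 53.9, 61.2 and 55.8 treated in A2780 (0.35, adjusted p = 0.0257). In A2780cis its values were 40.02, 31.1 and 44.2 and 51.6, 51.2 and 53.1 (0.43, adjusted p = 0.00648). MRPL4 and MRPL38 also rose in both lines at 6 h.

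Other named changes at 6 h were below 1 on the log2 scale. In A2780 MRPL39 rose with a log2 FC of 0.33, adjusted p = 0.0461. For MRPL37, a mitochondria-specific large subunit protein that also rose in A2780, it was 0.28, adjusted p = 0.0184. MRPL50, MRPL15 and MRPL35, all of the large subunit, fell in A2780, with log2 FC of -0.44, adjusted p = 0.00838, -0.36, adjusted p = 0.0205 and -0.29, adjusted p = 0.0413. In A2780cis MRPS30 fell from 116, 139.6 and 130.4 to 99.4, 91.6 and 91.3 CPM (-0.45, adjusted p = 0.00039), and MRPS27 fell with a log2 FC of -0.31, adjusted p = 0.00409. MRPL41, MRPL38 and MRPL4 rose there, with log2 FC of 0.68, adjusted p = 0.0227, 0.54, adjusted p = 0.011 and 0.54, adjusted p = 0.0305.

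Over the 4 treatment comparisons, 3 members passed the threshold in all: MRPL36, MRPL4 and MRPL49. MRPL36 fell and MRPL49 rose throughout, while MRPL4 rose at 6 h and fell at 12 h in both lines. At 6 h MRPL36 missed the threshold in each line when any of 5 of the 6 libraries was left out, and at 12 h in A2780cis it did so without treated replicate 2. The rise of MRPL4 at 6 h was lost in A2780 without untreated replicate 1 or treated replicate 1. In A2780cis it was lost without untreated replicate 2 or treated replicate 2 or 3. With GC content corrected for, it was lost in both lines. The fall of MRPL4 at 12 h passed the threshold whichever library was left out. In A2780 MRPL4 had 14.2, 20.2 and 22.3 CPM untreated and 35.6, 25.7 and 21.6 treated at 6 h, where the libraries overlapped, and 31.7, 30.1 and 35.5 and 16.3, 20.3 and 22.2 at 12 h, where they did not. Its untreated level differed between the times, as described below. In at least 1 comparison 42 members fell and 23 rose, and 6 did both (MRPL23, MRPL4, MRPL41, MRPL50, MRPL55 and MRPS2). The rises of MRPL23, MRPL55 and MRPS2 were called in A2780 at 6 h. Each was lost without untreated replicate 1 or treated replicate 1, and with GC content corrected for. Both calls of MRPL41 were also lost without single libraries. No comparison called the other 19: MRPL10, MRPL13, MRPL14, MRPL22, MRPL27, MRPL32, MRPL34, MRPL44, MRPL46, MRPS10, MRPS16, MRPS17, MRPS18A, MRPS18C, MRPS25, MRPS28, MRPS31, MRPS36 and MRPS6.

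The change in response from 6 h to 12 h was tested as the log2 FC at 12 h less that at 6 h. In A2780 it was lower for 20 members and higher for 1, against 13% and 10.7% of all genes (23.7% in either direction), with a median of -0.22 (-0.02 over all genes). In A2780cis it was lower for 8 and higher for 9, against 13.6% and 10.3% (24%), with a median of 0.02 (-0.03 over all genes). Without untreated A2780 replicate 1 of 6 h, 15.4% of the members were lower in A2780. In A2780cis the share higher ran from 5.13% without treated replicate 3 of 12 h to 17.9% without treated replicate 2 of 12 h. In A2780 the single higher member was MRPL49, at 0.46 ± 0.122 (SE, adjusted p = 0.00729). The lowest were MRPL12 at -1.50 ± 0.208 (SE, adjusted p = 1.69e-05), MRPS34 at -1.29 ± 0.205 (SE, adjusted p = 8.04e-05), MRPL4 at -1.27 ± 0.266 (SE, adjusted p = 0.00124) and MRPS12 at -1.08 ± 0.212 (SE, adjusted p = 0.000723). These differences followed GC content in part, as described below. With GC content corrected for, they shrank to -1.11, -0.88, -0.89 and -0.85 and still passed the threshold. At 6 h the libraries of MRPS34 had overlapped, with 35.6, 47.6 and 48.01 CPM untreated and 54.7, 51.6 and 40.9 treated.

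In A2780cis the response was higher at 12 h for MRPS33, a mitochondria-specific small subunit protein, at 0.78 ± 0.202 (SE, adjusted p = 0.00632), and for MRPL33 at 0.78 ± 0.197 (SE, adjusted p = 0.00533). MRPL51 and MRPS14 followed, at 0.66 ± 0.171 (SE, adjusted p = 0.00632) and 0.66 ± 0.180 (SE, adjusted p = 0.00927). The lowest differences there were those of MRPL4 at -1.24 ± 0.260 (SE, adjusted p = 0.00122), MRPS34 at -0.88 ± 0.203 (SE, adjusted p = 0.00291), MRPL54 at -0.76 ± 0.253 (SE, adjusted p = 0.0296) and MRPS2 at -0.72 ± 0.212 (SE, adjusted p = 0.0152). With GC content corrected for, these 4 were -1.04, -0.69, -0.62 and -0.59 and still passed the threshold. Without treated A2780cis replicate 3 of 6 h or untreated A2780cis replicate 3 of 12 h, MRPL54 and MRPS2 missed the threshold, and MRPL54 did so without any of 4 further libraries. Such a difference takes in that between the untreated times, which is described below.

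The untreated lines differed in single members and not in the median of the group. At 6 h 11 members were higher and 10 lower in A2780cis than in A2780, against 25% and 22.9% of all genes (47.9% in either direction), with a median of 0.00. At 12 h 13 were higher and 14 lower, against 25.4% and 27.5% (52.9%), with a median of 0.02. All these shares lie below the background. Without untreated A2780cis replicate 3 of 6 h, 7.69% were higher and 20.5% lower at 6 h, and without untreated A2780 replicate 2, 6.41% were lower. At 12 h 11.5% were lower without untreated A2780cis replicate 2.

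The largest differences were lower levels in A2780cis of MRPS31 (ENSG00000102738.7, chr13:40729128-40771190) and MRPL57 (ENSG00000173141.4, chr13:21176658-21179084), the only members on chromosome 13. MRPS31, a mitochondria-specific protein of the small subunit head, had 29.2, 29.2 and 26.1 CPM in A2780 and 9.97, 8.48 and 9.45 in A2780cis at 12 h, a log2 difference of -1.60 ± 0.127 (SE, adjusted p = 3.54e-11). At 6 h it had 30.9, 29.6 and 31.6 and 11, 10.1 and 13.7 CPM (-1.40, adjusted p = 1.11e-09). The lines did not overlap, and the treated libraries of either line stayed at the level of their own line, between 24.05 and 35.1 CPM in A2780 and between 7.12 and 10.3 in A2780cis.

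MRPL57, a mitochondria-specific large subunit protein, had 31.9, 33.2 and 32.6 CPM in untreated A2780 and 17, 15.8 and 15.1 in A2780cis at 12 h, a log2 difference of -1.03 ± 0.106 (SE, adjusted p = 5.41e-09), and -1.23, adjusted p = 4.56e-10 at 6 h. These genes have 4 and 5 named pseudogenes and no overlapping exon. The whole chromosome was examined after these values were seen. Its 213 tested protein-coding genes had a median log2 difference of -0.78 at 6 h and -0.90 at 12 h, the lowest of the 22 autosomes, and 76.1% and 79.8% of them were lower in A2780cis. Within 5 Mb of MRPS31, 31 of 38 other genes were lower at 6 h and 32 at 12 h, and within 5 Mb of MRPL57, 13 and 15 of 29 were lower and 10 higher at each time. The part of the chromosome in the difference was not tested.

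**Figure D4:**
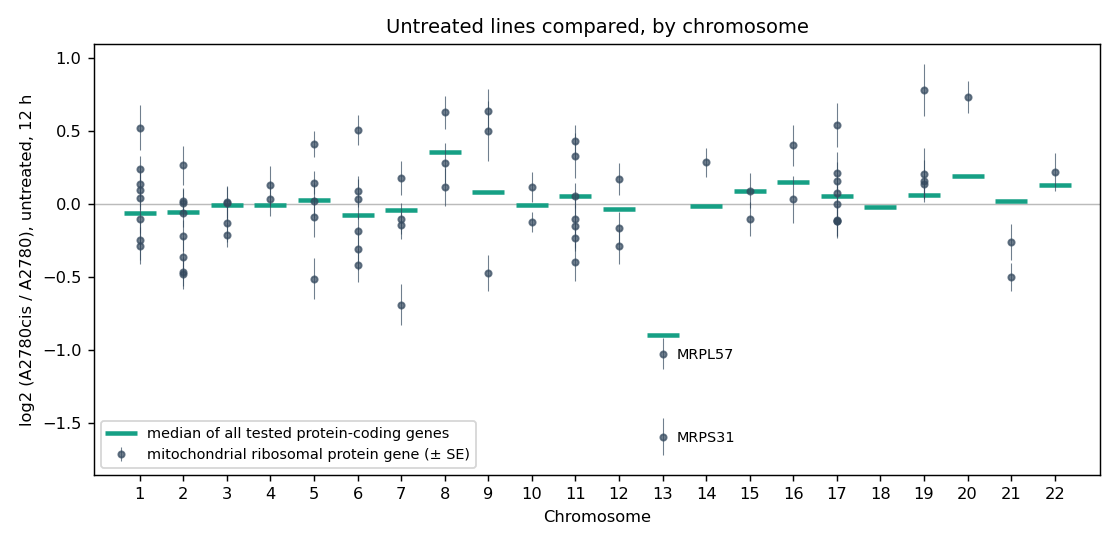
Log2 difference of untreated A2780cis from untreated A2780 at 12 h on the y axis, for the members on each of the 22 autosomes on the x axis. Dark points are members with bars of 1 SE, and green dashes the median of all tested protein-coding genes of the chromosome. MRPS31 (-1.60) and MRPL57 (-1.03) lie lowest, on chromosome 13, whose median is -0.90.

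Members that were higher in untreated A2780cis included MRPS26, a mitochondria-specific small subunit protein. It had 40.7, 39.5 and 44.7 CPM in A2780 and 67.04, 65.9 and 74.5 in A2780cis at 12 h (0.73, adjusted p = 2.75e-06), and 33.6, 42.96 and 42.01 and 62.3, 53.1 and 66.5 at 6 h (0.62, adjusted p = 4.41e-05). MRPL15, with a bacterial counterpart, had 83.5, 86.3 and 79.9 and 141, 122 and 123 CPM at 12 h (0.63, adjusted p = 4.31e-05), and its log2 difference at 6 h was 0.58, adjusted p = 0.00013. MRPL15 lies on chromosome 8, whose 465 tested protein-coding genes had the highest median difference of the autosomes (0.38 at 6 h and 0.36 at 12 h, with 51.4% and 51.2% higher in A2780cis). MRPS26 lies on chromosome 20, which came next (0.20 and 0.19, with 41.8% and 38.5% higher). The part of these chromosomes in the differences was not tested. The lines were fully apart for both genes at both times, as they were for 27.1% of all genes upwards and 24.9% downwards at 6 h and for 30.2% and 32.1% at 12 h. At 6 h MRPS30 (0.69, adjusted p = 3.59e-07) and MRPL18 (0.58, adjusted p = 7.8e-05) were also higher, and at 12 h MRPL4 (0.78, adjusted p = 0.000573) and MRPS2 (0.64, adjusted p = 0.000703). At 12 h the difference of the lines had a Spearman rho with GC content of 0.54 over the members and 0.24 over protein-coding genes. With GC content corrected for, MRPS26, MRPL4 and MRPS2 had 0.44, 0.41 and 0.44 there, and MRPL15 had 0.74. All of these still passed the threshold.

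Besides MRPS31 and MRPL57, the lowest members in A2780cis were MRPS6 at 6 h (-0.41, adjusted p = 0.000946), MRPS33 at 12 h (-0.69, adjusted p = 0.000179) and MRPS36 at both times (-0.42, adjusted p = 0.0163 at 6 h and -0.51, adjusted p = 0.00343 at 12 h). The libraries of MRPS36 overlapped at 6 h, and it missed the threshold there with GC content corrected for and without untreated A2780 replicate 2 or untreated A2780cis replicate 1 or 2. All 10 members that were lower at 6 h were also lower at 12 h, and 6 of the 11 that were higher at 6 h were also higher at 12 h.

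Untreated cells of the 2 times also differed, in relation to GC content. In A2780 10 members were higher and 15 lower at 12 h than at 6 h, against 16.6% and 10.3% of all genes (26.9% in either direction), with a median of -0.14. In A2780cis 13 were higher and 27 lower, against 18% and 21.9% (39.9%), with a median of -0.17 (-0.09 over all genes). Without untreated A2780 replicate 2 of 6 h, 2.56% were lower in A2780, and without untreated A2780cis replicate 3 of 6 h, 12.8% in A2780cis. MRPL4 rose most in both lines, from 22.4, 16.8 and 22.4 CPM at 6 h to 46.9, 57.1 and 63.6 at 12 h in A2780cis (1.44, adjusted p = 2.14e-05) and with 0.78, adjusted p = 0.00474 in A2780. MRPL38 (1.04, adjusted p = 4.48e-05), MRPL41 (1.36, adjusted p = 8.14e-05) and MRPL55 (1.03, adjusted p = 6.71e-05) followed in A2780cis. The lowest there were MRPS33 (-0.64, adjusted p = 0.00137), MRPL50 (-0.59, adjusted p = 0.000618), MRPS36 (-0.51, adjusted p = 0.00718) and MRPL13 (-0.50, adjusted p = 0.00394).

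In A2780 the higher members were MRPL38 (0.68, adjusted p = 0.00376), MRPL55 (0.61, adjusted p = 0.00968) and MRPL28 (0.57, adjusted p = 0.0146) beside MRPL4. The lower ones were MRPL42 (-0.46, adjusted p = 0.0048), MRPS36 (-0.42, adjusted p = 0.0305), MRPL15 (-0.42, adjusted p = 0.011) and MRPL32 (-0.41, adjusted p = 0.00304). Transcripts of MRPL4, MRPL38, MRPL41 and MRPL55 have a GC content of 63.6, 62.2, 66.7 and 63.7%, and those of MRPS36, MRPL50 and MRPS33 of 34.8, 35.0 and 41.4%. Over the 78 genes, whose GC content ran from 34.8 to 66.7% with a median of 48.2%, the log2 difference of the times had a Spearman rho with GC content of 0.74 in A2780 and 0.87 in A2780cis. Over 13881 protein-coding genes, with a median of 48.8%, rho was 0.75 and 0.76. The members thus followed the trend of all genes.

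The GC trend was also removed from every library by a smoothed fit, an alternative chosen after the data had been seen. Then 5 members were higher and 4 lower at 12 h in untreated A2780, 2 of them as before, and 5 and 3 in untreated A2780cis, 3 of them as before. The shares over all genes were then 12.3% higher and 2.76% lower in A2780 and 8.34% and 3.94% in A2780cis. Named members that no longer passed the threshold were all 8 in A2780 and MRPL41, MRPL55, MRPS33, MRPL50, MRPS36 and MRPL13 in A2780cis, while MRPL4 (0.57) and MRPL38 (0.29) still did. The treatment comparisons at 6 h had rho of 0.64 in A2780 and 0.56 in A2780cis, and after removal 6 members rose and 2 fell in A2780, and 6 and 6 in A2780cis. Over all genes 17.7% then rose and 10.4% fell in A2780, and 16.1% and 15.7% in A2780cis. Of the members called at 6 h before, 4 in A2780 and 8 in A2780cis were called again in the same direction. Those in A2780 were MRPL36, MRPL39, MRPL49 and MRPS11. Of the members named at 6 h, MRPL37, MRPL50, MRPL15, MRPL35, MRPL4 and MRPL38 in A2780 and MRPL4 in A2780cis were not called as before.

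At 12 h the treatment comparisons had rho of -0.20 in A2780 and -0.07 in A2780cis, and after removal 3 rose and 43 fell in A2780 (median -0.27), and 21 rose and 25 fell in A2780cis (median -0.09). Over all genes 31.4% then rose and 29.4% fell in A2780, and 33.3% and 31.7% in A2780cis. The share of members that fell in A2780cis was thus near the background. All members named at 12 h for treatment or for the difference between the lines still passed the threshold, for instance MRPL12 with -1.77 in A2780 and -1.91 in A2780cis. The interaction at 12 h then gave 23 higher and 3 lower members, with the 18 called before among them.

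**Figure D5:**
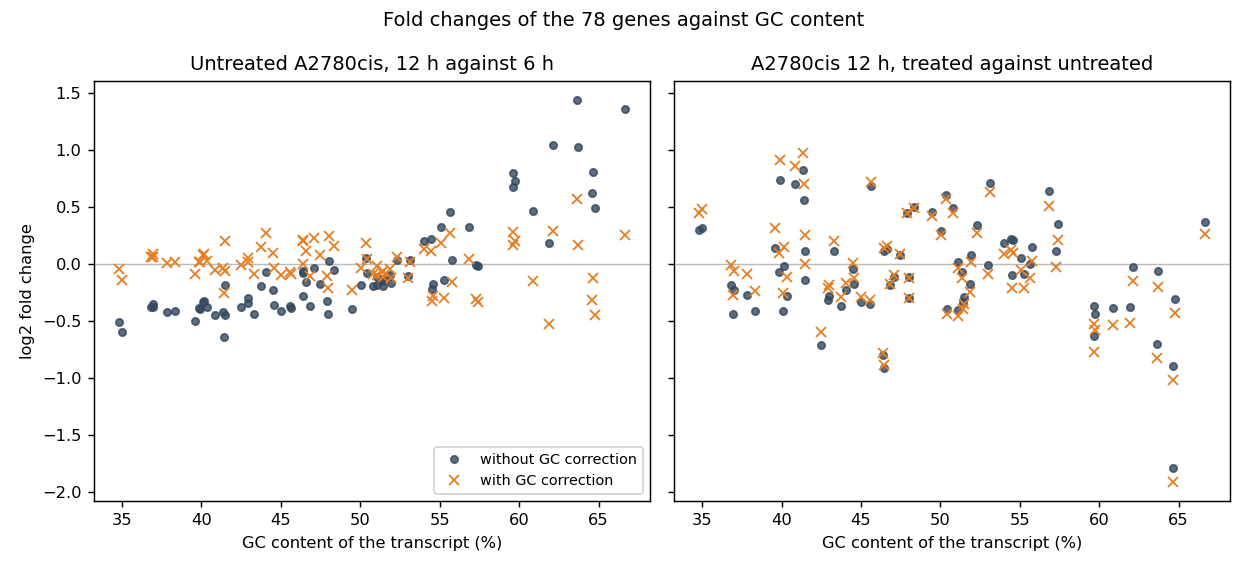
Log2 fold change of the 78 genes (y axis) against the GC content of their transcripts in percent (x axis), for untreated A2780cis at 12 h against 6 h on the left and treated against untreated A2780cis at 12 h on the right. Circles are values without and crosses with the GC correction. On the left the circles rise with GC content (rho 0.87) and the crosses lie near 0, and on the right no such slope is seen (rho -0.07).

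Other genes of the mitoribosome were described by lists. Of 5 further subunits, 3 fell in A2780 at 12 h, and 1 fell and 1 rose in A2780cis. The background for this and the next lists is 26.1% fallen and 28.6% risen in A2780 and 28.9% and 31% in A2780cis. PTCD3, a pentatricopeptide repeat protein of the small subunit, fell in both lines (-1.001, adjusted p = 1.67e-09 and -0.79, adjusted p = 6.65e-08). AURKAIP1 fell in A2780 (-0.65, adjusted p = 0.00409) and had -0.25, adjusted p = 0.242 in A2780cis. GADD45GIP1 did likewise, with -0.54, adjusted p = 0.0185 and 0.05, adjusted p = 0.826.

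Of 26 assembly factors, 10 fell (38.5%) and 3 rose (11.5%) in A2780, and 9 fell (34.6%) and 4 rose (15.4%) in A2780cis, where the share fallen is near the background. Named by the smallest p in A2780, the GTPase NOA1 (-0.79, adjusted p = 6.82e-08 and -0.80, adjusted p = 1.97e-08), the pseudouridine synthase RPUSD4 (-0.70, adjusted p = 3.13e-07 and -0.85, adjusted p = 7.29e-09) and MALSU1, a factor of the large subunit (-0.75, adjusted p = 8.77e-07 and -0.76, adjusted p = 5.69e-07), fell in both lines. Of 17 mitochondrial translation factors, 8 fell (47.1%) and 2 rose (11.8%) in A2780, and 6 fell (35.3%) and 4 rose (23.5%) in A2780cis, the latter shares again near the background. By the same rule, the ribosome recycling factor MRRF fell in both (-0.84, adjusted p = 4.68e-09 and -0.99, adjusted p = 1.84e-10), as did LRPPRC, which stabilizes mitochondrial mRNA (-1.20, adjusted p = 3e-10 and -0.68, adjusted p = 2.21e-06), and the elongation factor GFM1 (-0.91, adjusted p = 2.93e-08 and -0.33, adjusted p = 0.00618).

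Of the 11 regulators of mitochondrial biogenesis tested, 9 fell in A2780 at 12 h (median -0.81), and 9 fell and 1 rose in A2780cis (median -0.82), which is 81.8% fallen in each line against 26.1% and 28.9% of all genes. PPARGC1A, the twelfth gene of the list, was not among the genes tested. The coactivator PPARGC1B had -1.31, adjusted p = 1.94e-08 in A2780 and -2.03, adjusted p = 1.05e-11 in A2780cis, and the transcription factor NRF1 had -1.14, adjusted p = 3.25e-10 and -1.13, adjusted p = 1.85e-10. YY1, whose motif letters were searched above, fell with -0.92, adjusted p = 1.31e-08 and -0.90, adjusted p = 1.29e-08. Whether these falls bear on the members was not tested.

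The RNA of the mitoribosome is encoded in mitochondrial DNA and was measured in the same libraries. MT-RNR2, of the large subunit, rose at 12 h in both lines (0.72, adjusted p = 0.000497 in A2780 and 1.39, adjusted p = 7.05e-08 in A2780cis). At 6 h it had -0.20, adjusted p = 0.363 and 0.30, adjusted p = 0.161. Its untreated level was lower at 12 h than at 6 h (-0.59, adjusted p = 0.0102 and -0.80, adjusted p = 0.000551), and in A2780 the mean CPM were 6942 untreated and 6027 treated at 6 h and 4611 and 7607 at 12 h. MT-RNR1, of the small subunit, had 0.35, adjusted p = 0.233 at 12 h in A2780 and rose in A2780cis (1.33, adjusted p = 5.5e-05). Libraries of a group differed widely: MT-RNR2 had 8307 to 12095 CPM in treated A2780cis at 12 h, and MT-RNR1 828 to 2164 at 6 h. Per the paper a kit for total RNA was used, and how library preparation bears on these ribosomal RNAs was not tested. The alternatives described below were summarized for the members alone.

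Cytosolic ribosomal proteins and nuclear genes of oxidative phosphorylation were counted for comparison. Of 87 cytosolic ribosomal protein genes, 19 fell (21.8%, against 26.1% of all genes) and 2 rose (2.30%, against 28.6%) in A2780 at 12 h (median -0.14), and 2 fell (2.30%, against 28.9%) and 66 rose (75.9%, against 31%) in A2780cis (median 0.49). Of 82 oxidative phosphorylation genes, 16 fell (19.5%) and 5 rose (6.10%) in A2780 (median -0.01), and 2 fell (2.44%) and 57 rose (69.5%) in A2780cis (median 0.59). The log2 FC at 12 h was higher in A2780cis than in A2780 for 62 of the 87 and 50 of the 82, and for 16 of the 78 mitochondrial ribosomal protein genes, which is 71.3, 61.0 and 20.5% beside 9.7% of all genes. The median differences were 0.63, 0.54 and 0.21.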

How the data were processed

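RNA sequencing of both lines was analysed from the table of expected counts that the authors deposited. Per the paper and the submitters' notes, the authors trimmed reads with Trimmomatic, aligned them with STAR 2.5.2b to GRCh38.p7 and counted them on exons with featureCounts, giving fractions to reads with several alignments and allowing overlaps of several genes. The strand setting was not found.

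Identifiers were matched to GENCODE release 44. Counts were rounded, filtered with filterByExpr (minimum count 10, minimum total 15), scaled with TMM and fitted in R 4.3.3 with edgeR 4.0.16 (quasi-likelihood, 1 coefficient per group, 24 libraries, 16 residual degrees of freedom). Adjusted p-values are two-sided Benjamini-Hochberg values over 20240 genes with a threshold of 0.05. Standard errors (SE) were derived from the log2 FC and its F statistic. CPM are TMM-scaled. The procedure was tested on simulated data.

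The members and gene lists were chosen with earlier results of these data known. Members were named by size of change: for each treatment comparison up to 6 in either direction among those past the threshold whose libraries did not overlap, for each other comparison up to 4 past the threshold, the 5 highest and lowest per kb, and up to 3 genes of a pathway list by smallest p. Others are named as chosen by a count or a call pattern. Alternatives were DESeq2 1.42.0 (size factors, Wald test), other scalings, no filter, unrounded counts, a fit of the compared samples, a replicate block and leaving out each library. GC correction and exon length were added after the data had been seen.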

Additional observations from a re-analysis of the deposited data

Results flagged for a closer look

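The results below are tests in which the response to treatment differed between the lines or between the times. They are given as values, and no cause was tested. In the interaction of line and treatment at 12 h, 16 members were higher in A2780cis and 2 lower, against 9.7% and 14% of all genes. The 4 largest positive differences in log2 FC were 0.96 for MRPL41, 0.84 for MRPL17, 0.74 for MRPS21 and 0.70 for MRPL51, and the 2 negative ones were -0.52 for MRPL49 and -0.51 for MRPS30. At 6 h 1 member was lower in A2780cis, MRPL12, with -1.02, where 2.38% of all genes were lower.

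Between 12 h and 6 h of treatment, the response in A2780 was higher for 1 member and lower for 20, against 10.7% and 13% of all genes. MRPL49 was higher by 0.46 on the log2 scale, and the lowest differences were -1.50 for MRPL12, -1.29 for MRPS34, -1.27 for MRPL4 and -1.08 for MRPS12. In A2780cis the response was higher for 9 members (11.5%) and lower for 8 (10.3%), near the 10.3% and 13.6% of all genes. The highest differences were 0.78 for MRPS33, 0.78 for MRPL33, 0.66 for MRPL51 and 0.66 for MRPS14, and the lowest were -1.24 for MRPL4, -0.88 for MRPS34, -0.76 for MRPL54 and -0.72 for MRPS2.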

How the results depend on the processing

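Shares below are percentages of the 78 members higher or lower, with adjusted p at most 0.05. In A2780 at 12 h more members were lower than higher under every alternative run, with the smallest excess for library totals alone, and the same holds for the excess of members with a higher response in A2780cis at 12 h. With libraries scaled by their totals alone the median over all genes at 12 h shifted to 0.24 in A2780 and 0.15 in A2780cis, and values should be read against that shift. The labels give no batch, and depth limits MRPL41 and MRPS31 most, whose lowest counts were 82 and 101. Where a value moved, the cause was not tested.

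With library totals alone, 15.4% of the members rose and 24.4% fell in A2780 at 12 h (median -0.0565), and 30.8% rose in A2780cis at 12 h. At 6 h in A2780cis 10.3% rose and 3.85% fell, the interaction at 12 h gave 5.13% lower with a median of 0.10, the later response in A2780 gave 7.69% higher and 14.1% lower with a median of -0.0689, 30.8% were lower in untreated A2780cis at 6 h, and 8.97% were lower at 12 h in untreated A2780cis with a median of -0.000341. With TMM from protein-coding genes alone, 5.13% rose in A2780 at 12 h, 30.8% rose and 16.7% fell in A2780cis at 12 h, 10.3% fell in A2780 and 3.85% in A2780cis at 6 h, and the later response gave 2.56% higher in A2780 and 6.41% lower in A2780cis.

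With DESeq2 size factors, 10.3% fell in A2780 at 6 h and the later response in A2780 was higher for 2.56%. The DESeq2 Wald test gave the same values of 10.3% and 2.56%, 2.56% lower in the interaction at 6 h and 29.5% lower at 12 h in untreated A2780. Without a filter on low counts, 2.56% fell in A2780cis at 6 h, and the later response was higher for 0% in A2780 and lower for 15.4% in A2780cis. In fits of the compared samples alone, 6.41% rose in A2780 at 12 h, the later response in A2780 was higher for 2.56%, 7.69% were higher in untreated A2780cis at 6 h, and 29.5% and 15.4% were lower at 12 h in untreated A2780 and A2780cis.

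Of the 37 members without exon overlap, 5.41% rose and 10.8% fell in A2780 at 6 h, 2.70% rose in A2780cis at 6 h, 0% were lower in the interaction at 6 h, 0% were higher in the later response of A2780, and 5.41% and 10.8% were higher at 12 h in untreated A2780 and A2780cis. With the GC correction, 3.85% rose in A2780 at 12 h, 2.56% fell in A2780 at 6 h, 3.85% and 2.56% were lower in the interactions at 12 h and 6 h, and the later response was lower for 39.74% in A2780 (median -0.32) and 17.9% in A2780cis. In untreated cells at 12 h against 6 h it gave 6.41% higher and 5.13% lower in A2780 (median -0.0221) and 6.41% and 3.85% in A2780cis, where the median turned to 0.0056, and MRPS36 in A2780 turned to 0.0389.

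The same replicate number did not pair the libraries: correlations of same-numbered libraries ran from -0.19 to 0.21, and no comparison had all above 0.1. Every library of a group correlated best with its own number in 1 comparison, untreated A2780cis against A2780 at 12 h. With the replicate number as a block 2.56% instead of 1.28% of the members were higher in the later response of A2780, and all 89 values of named members still passed the threshold.

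Leaving out 1 library in turn gave these ranges. In A2780 at 12 h 2.56% to 3.85% rose and 38.5% to 50% fell (median -0.34 to -0.25), and in A2780cis 16.7% to 37.2% fell. At 6 h 1.28% to 11.5% rose and 0% to 6.41% fell in A2780, and 1.28% to 8.97% rose and 3.85% to 7.69% fell in A2780cis. The interaction had 14.1% to 32.1% higher at 12 h and 1.28% to 2.56% lower at 6 h. The later response was lower for 15.4% to 30.8% in A2780, and in A2780cis it was higher for 5.13% to 17.9% and lower for 6.41% to 12.8%. Of untreated A2780cis against A2780, 7.69% to 17.9% were higher and 6.41% to 20.5% lower at 6 h, and 11.5% to 20.5% were lower at 12 h, with a median of -0.0410 (without untreated A2780cis replicate 1) to 0.0485. Untreated A2780 at 12 h had 2.56% to 12.8% higher and 2.56% to 23.1% lower than at 6 h, and untreated A2780cis had 12.8% to 41.0% lower. Of 654 such values of named members 56 no longer passed the threshold.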
